A study of Mus musculus with 96 samples.

Results

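The mitosis genes described here are 33 genes that run entry into mitosis, chromosome segregation and cell division, taken by name from the 55536 gene IDs of the expression tables. They comprise 7 kinases and phosphatases of the mitotic switch, 3 cyclins, 6 genes of the spindle checkpoint and the anaphase-promoting complex, 4 kinetochore genes, 3 genes of chromosome structure and the passenger complex, 6 spindle motors and microtubule proteins, 3 cytokinesis genes and 1 transcription factor, Foxm1. Their RNA comes from sequenced mouse gut organoids, which are 3-dimensional cultures of primary intestinal epithelium, and is given as TPM, the share of a library's transcripts scaled to a fixed total, which is a level per transcript length.

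Mitosis starts when cyclin B bound to the kinase Cdk1 is freed of an inhibitory phosphate. Wee1 adds that phosphate and the Cdc25 phosphatases remove it. Aurora and Polo-like kinases build the spindle, and the checkpoint proteins Bub1, Bub1b, Ttk and Mad2l1 hold back the anaphase-promoting complex and its activator Cdc20 until every kinetochore is attached. In the gut, divisions are made by crypt stem cells and their transit-amplifying progeny, whereas differentiated cells have left the cycle. Most of these transcripts accumulate late in the cell cycle, under the DREAM and MuvB complexes and Foxm1, which act through a short promoter element called the CHR and through CCAAT boxes bound by NF-Y.

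All organoids came from C57BL/6 mice, were treated for 1 h with 0.1 µM dexamethasone to synchronise their circadian clocks and were collected every 2 h, here from 24 to 46 h afterwards. The 4 genotypes were APC+/+;BMAL1+/+ (control), APC+/+;BMAL1-/- (Bmal1-null), APCmin/-;BMAL1+/+ (Apc-min) and APCmin/-;BMAL1-/- (Apc-min Bmal1-null). BMAL1 is a core clock transcription factor, encoded by Arntl, and APC is the tumour suppressor that restrains Wnt signalling. The labels give 2 organoid lines per genotype without saying which library came from which line, so p-values below measure the spread between libraries, not between lines. Organoids with wild-type Apc grew in ENR medium and those with APCmin in EN medium, and the library numbers of the 2 Apc backgrounds also fall in separate runs, so an Apc difference, the medium and the library series cannot be told apart. Each genotype had 22 libraries in the tables, with 28.8 to 48.1 M uniquely mapped reads per library.

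Arntl was at 11.3 to 20.7 TPM in control and 6.31 to 10.9 TPM in Bmal1-null libraries, and its target Nr1d1 was at 7.65 to 28.2 TPM against 1.40 to 3.25 TPM. On APCmin, Arntl was at 4.09 to 17.3 TPM in Apc-min and 2.00 to 14.7 TPM in Apc-min Bmal1-null libraries, so Arntl RNA was not absent in any Bmal1-null group. All 9 epithelial markers averaged 1 TPM or more in every genotype, and all 5 fibroblast markers were below 1 TPM in every genotype. The pair of 28 h libraries numbered 9 and 10 went against its Bmal1 labels. A score was made from 1021 genes that differed by Bmal1 genotype among the other APCmin libraries, with the Apc-min mean at 0 and the Apc-min Bmal1-null mean at 1. On it, the library labelled Apc-min stood at 0.99 against -0.30 to 0.26 in the other 21 libraries, and the library labelled Apc-min Bmal1-null stood at -0.23 against 0.95 to 1.07. Both were kept under their labels, and most counts over all libraries are also given without them. The fits within library sets below include them.

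Promoter sequence from RefSeq (GRCm38.p6; 250 bases before to 50 after the start) was matched by symbol for 26 of the 33 genes, in 28 windows. The CHR letters TTTGAA, on either strand, were in 20 of the 28 windows (71.4%), against 17.9% of all 32851 promoter windows and 12.3% of the 13021 windows of genes expressed in these organoids. CCAAT, on either strand, was in 22 windows (78.6%), against 37.4% of all windows. The E-box CACGTG, a site of the kind BMAL1 binds, was in 2 windows (7.14%), those of Anln and Ttk, against 7.15% of all windows. Both CHR and CCAAT letters were in the same window for 16 genes, and Birc5, Mad2l1, Nuf2 and Nusap1 held none of these motifs. No entry was found for Aurkb, Ccna2, Cdc25c, Foxm1, Kif20a, Tpx2 and Wee1.

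The 100 bases before the start are printed for 6 genes that mark the different patterns below. Cdc20, Cdk1 and Ube2c moved with most of the group, Anln differed most between Apc backgrounds, and Cdc25b and Mad2l1 departed from the others. Each runs 5′ to 3′ on the gene's strand, with matches to the 3 motifs or their reverse complements in capitals. They lie at chr4:118437344-118437443 (minus strand, Cdc20), chr10:69352913-69353012 (minus, Cdk1), chr2:164769829-164769928 (plus, Ube2c), chr9:22389207-22389306 (minus, Anln), chr2:131186848-131186947 (plus, Cdc25b) and chr6:66535121-66535220 (plus, Mad2l1).
Cdc20: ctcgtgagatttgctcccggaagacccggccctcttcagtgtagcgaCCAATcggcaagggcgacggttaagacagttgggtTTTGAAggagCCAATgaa
Cdk1: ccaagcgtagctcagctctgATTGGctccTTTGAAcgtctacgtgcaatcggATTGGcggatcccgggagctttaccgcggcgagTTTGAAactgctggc
Ube2c: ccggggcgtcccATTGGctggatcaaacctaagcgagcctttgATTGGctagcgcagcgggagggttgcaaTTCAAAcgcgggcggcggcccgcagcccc
Anln: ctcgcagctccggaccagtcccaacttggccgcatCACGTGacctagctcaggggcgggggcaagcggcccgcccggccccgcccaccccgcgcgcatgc
Cdc25b: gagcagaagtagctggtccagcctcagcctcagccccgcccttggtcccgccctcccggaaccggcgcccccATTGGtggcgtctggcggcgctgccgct
Mad2l1: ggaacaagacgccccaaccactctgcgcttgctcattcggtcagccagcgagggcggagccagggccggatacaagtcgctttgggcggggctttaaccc
Cdc20 and Ube2c carried 1 CHR match each here and Cdk1 carried 2, starting 71 and 15 bases before the start. The Anln stretch holds the E-box, starting 65 bases before the start, and its 2 CHR matches lie after the start, outside the printed stretch. Cdc25b had 1 CCAAT match, and the Mad2l1 stretch had no match to any of the 3 motifs. These matches describe letters only.

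The mitosis genes were higher in organoids with APCmin than in those with wild-type Apc, in both Bmal1 backgrounds. Summed over the 33 genes, the level was 1617 to 2158 TPM (median 1908) in control libraries, 1577 to 2061 TPM (median 1897) in Bmal1-null libraries, 1551 to 4158 TPM (median 3532) in Apc-min libraries and 2786 to 4027 TPM (median 3872) in Apc-min Bmal1-null libraries. The 2 wild-type Apc genotypes had nearly the same range, and the lowest Apc-min libraries reached down into it. For 31 of the 33 genes the mean level was highest in Apc-min Bmal1-null, next in Apc-min and lowest in the 2 other genotypes. In bulk RNA, more dividing cells and more of each RNA per cell cannot be told apart.

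Tested with limma on log2(TPM + 1) with time point as a factor, 31 of the 33 genes rose and 0 fell in Apc-min against control at an adjusted p under 0.05. Of all 13663 genes tested, 81.6% were called in this comparison, 50.5% as higher and 31.1% as lower. The median log2 difference was 0.70 over the mitosis genes and 0.17 over all genes. In Apc-min Bmal1-null against Bmal1-null, 32 rose and 0 fell, where 84.5% of 13404 genes were called and 45.7% were higher. Here the medians were 0.90 and 0.07. All 33 genes passed the filter on low values in every comparison. Without the 28 h pair the counts were 31 and 31, with Cdc25b no longer called in the second. With the mean of each library set (the lower- or the higher-numbered library of each time point in the labels) as the unit, the first count was 10.

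The direction held for most members under another scaling, but not for Wee1 and Cdc25b. Median-of-ratios scaling moved the median over all genes in Apc-min against control from 0.17 to 0.02, and 27 members rose while Wee1 fell by 0.15 ± 0.05 (limma adjusted p = 0.0053). With a covariate for transcript length, the slope of log2 TPM on length in each library, 24 rose in that comparison and 31 in Apc-min Bmal1-null against Bmal1-null. In that fit Wee1 fell by 0.22 and 0.13 and Cdc25b by 0.11 in both.

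**Figure D1:**
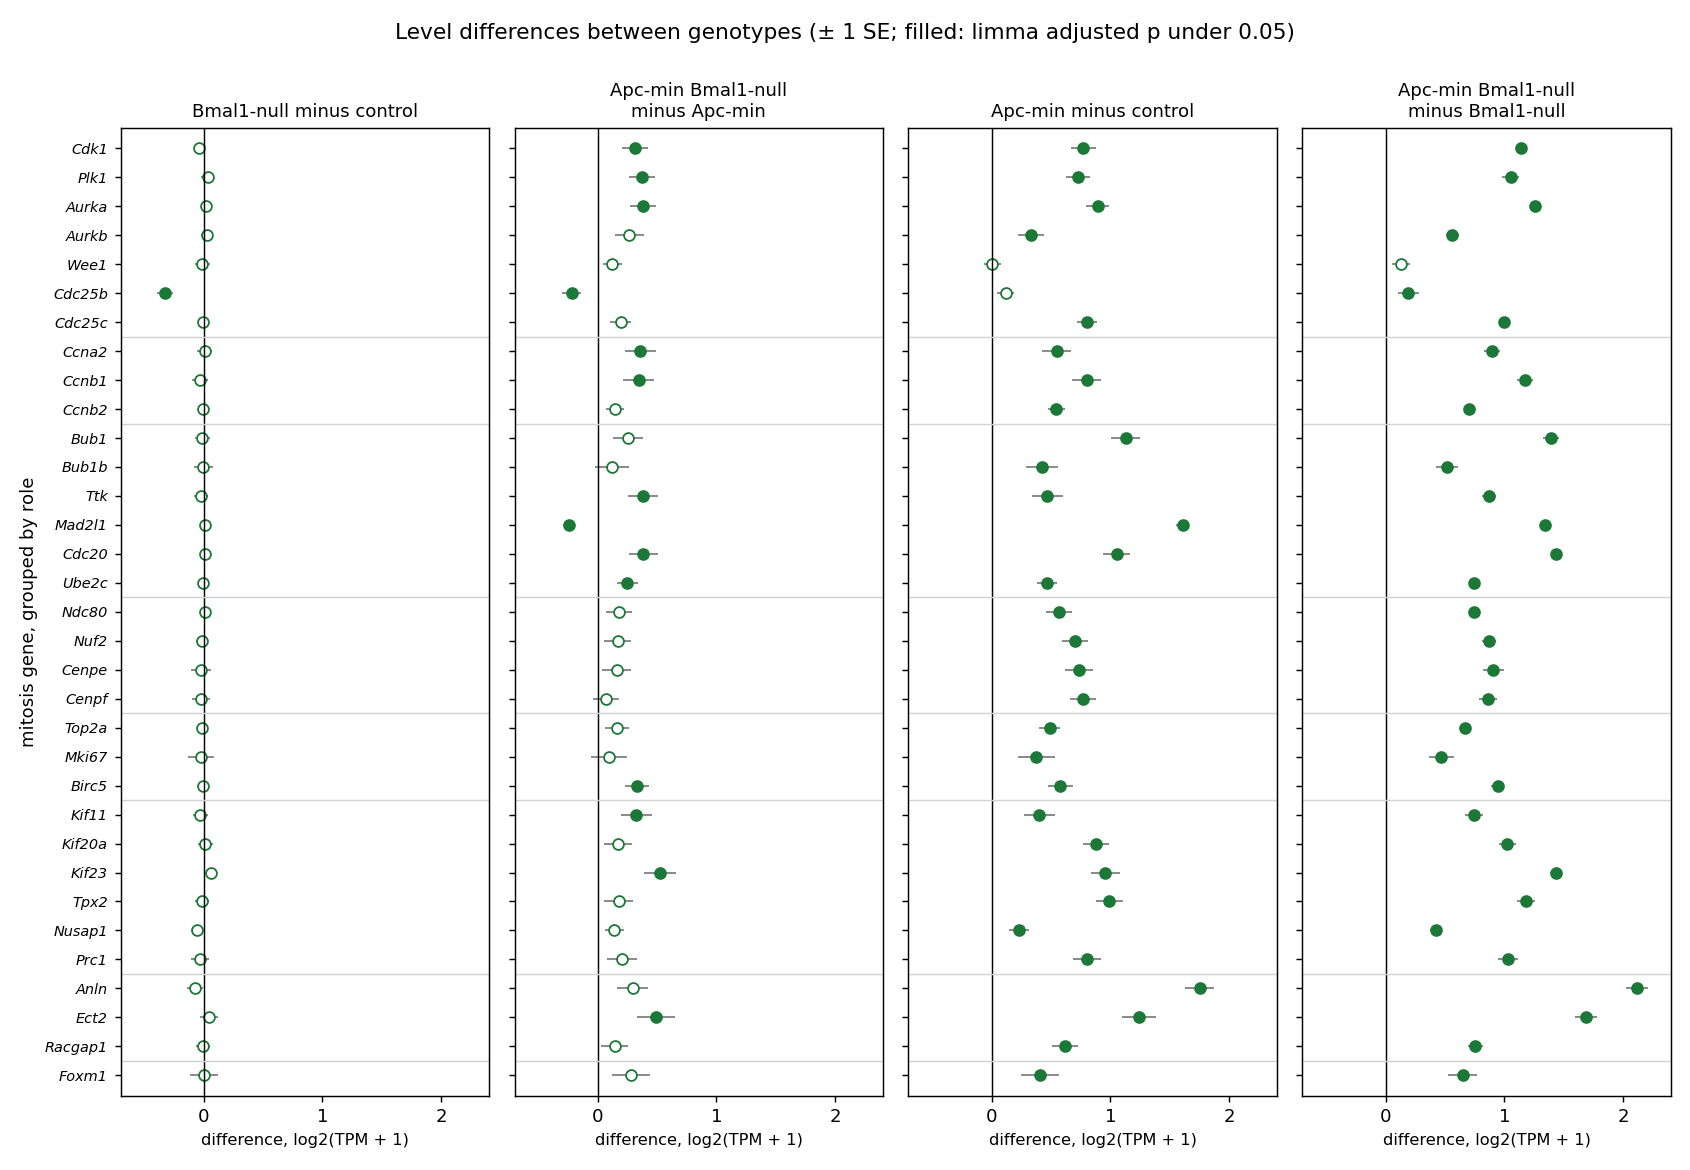
Log2 differences in level for all 33 mitosis genes (rows, grouped by role) in 4 genotype comparisons (columns); points are limma estimates, bars are 1 SE, and filled points have an adjusted p under 0.05. In Bmal1-null minus control only Cdc25b is filled, whereas in Apc-min minus control 31 points are filled, all to the right of 0.

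Among the kinases and their switch, Cdk1 itself was at 122 to 162 TPM (median 137) in control and 118 to 152 TPM (median 135) in Bmal1-null libraries. It was at 121 to 345 TPM (median 269) in Apc-min and 225 to 330 TPM (median 307) in Apc-min Bmal1-null libraries. The lowest Apc-min library thus lay beside the controls, whereas the Apc-min Bmal1-null range lay wholly above that of Bmal1-null. The difference was 0.77 ± 0.11 (SE) in Apc-min against control and 1.14 ± 0.04 in Apc-min Bmal1-null against Bmal1-null. Plk1, Aurka and Aurkb, which drive spindle assembly and segregation, rose by 0.73, 0.89 and 0.33 in the first and by 1.05, 1.26 and 0.56 in the second.

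The switch genes around Cdk1 were split. Cdc25c, a phosphatase that activates Cdk1, was at 10.9 to 15.1 TPM (median 13.2) in control and 12.8 to 29.7 TPM (median 26.1) in Apc-min libraries, a rise of 0.80 ± 0.08 (limma adjusted p = 8.5e-11). Wee1, its opponent, was at 13.9 to 24.8 TPM (median 20.9) in control, 13.96 to 24.5 TPM (median 20.7) in Bmal1-null, 14.8 to 25.9 TPM (median 20.7) in Apc-min and 10.5 to 25.8 TPM (median 23.4) in Apc-min Bmal1-null libraries. These 4 ranges overlap almost fully, and the Wee1 differences were 0.01 ± 0.08 (limma adjusted p = 0.93) and 0.13 ± 0.08 (adjusted p = 0.10). Cdc25b, another Cdk1-activating phosphatase, was at 30.7 to 56.7 TPM (median 47.3) in control and 35.8 to 61.1 TPM (median 49.6) in Apc-min libraries. Its difference of 0.12 ± 0.07 did not pass the test (limma adjusted p = 0.12), and against Bmal1-null it rose by 0.19 ± 0.09 in Apc-min Bmal1-null (adjusted p = 0.044).

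The cyclins all rose in both comparisons. Ccnb1, the cyclin B that activates Cdk1, was at 34.9 to 62.9 TPM (median 55.2) in control, 38.5 to 64.3 TPM (median 51.4) in Bmal1-null, 37.8 to 133 TPM (median 108) in Apc-min and 68.2 to 140 TPM (median 125) in Apc-min Bmal1-null libraries. Its differences were 0.80 ± 0.12 and 1.17 ± 0.07 (limma adjusted p = 3.1e-07 and 1.0e-17). Ccna2 rose by 0.55 and 0.90 and Ccnb2 by 0.55 and 0.71.

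In the checkpoint group, Mad2l1, which binds and holds back Cdc20, was at 40.9 to 64.2 TPM (median 51.4) in control and 127 to 183 TPM (median 164) in Apc-min libraries. It was the 1 member whose ranges in these genotypes did not overlap, with Apc-min above control. Of all genes tested, 15.3% lay wholly above control in this way and 12.9% wholly below. Its difference was 1.61 ± 0.05 (limma adjusted p = 8.4e-26). Bub1 rose by 1.13 ± 0.12 and 1.39 ± 0.07, from 11.1 to 21.6 TPM in control to 13.7 to 50.6 TPM in Apc-min libraries, with overlap at the low end. Cdc20 was at 103 to 136 TPM (median 122) in control, 105 to 144 TPM (median 122) in Bmal1-null, 106 to 358 TPM (median 292) in Apc-min and 218 to 367 TPM (median 346) in Apc-min Bmal1-null libraries, with differences of 1.05 ± 0.11 and 1.44 ± 0.05. Ube2c, the ubiquitin-conjugating enzyme of the anaphase-promoting complex and the most abundant member, rose by 0.47 and 0.74, Ttk by 0.47 and 0.87 and Bub1b by 0.43 and 0.52.

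**Figure D2:**
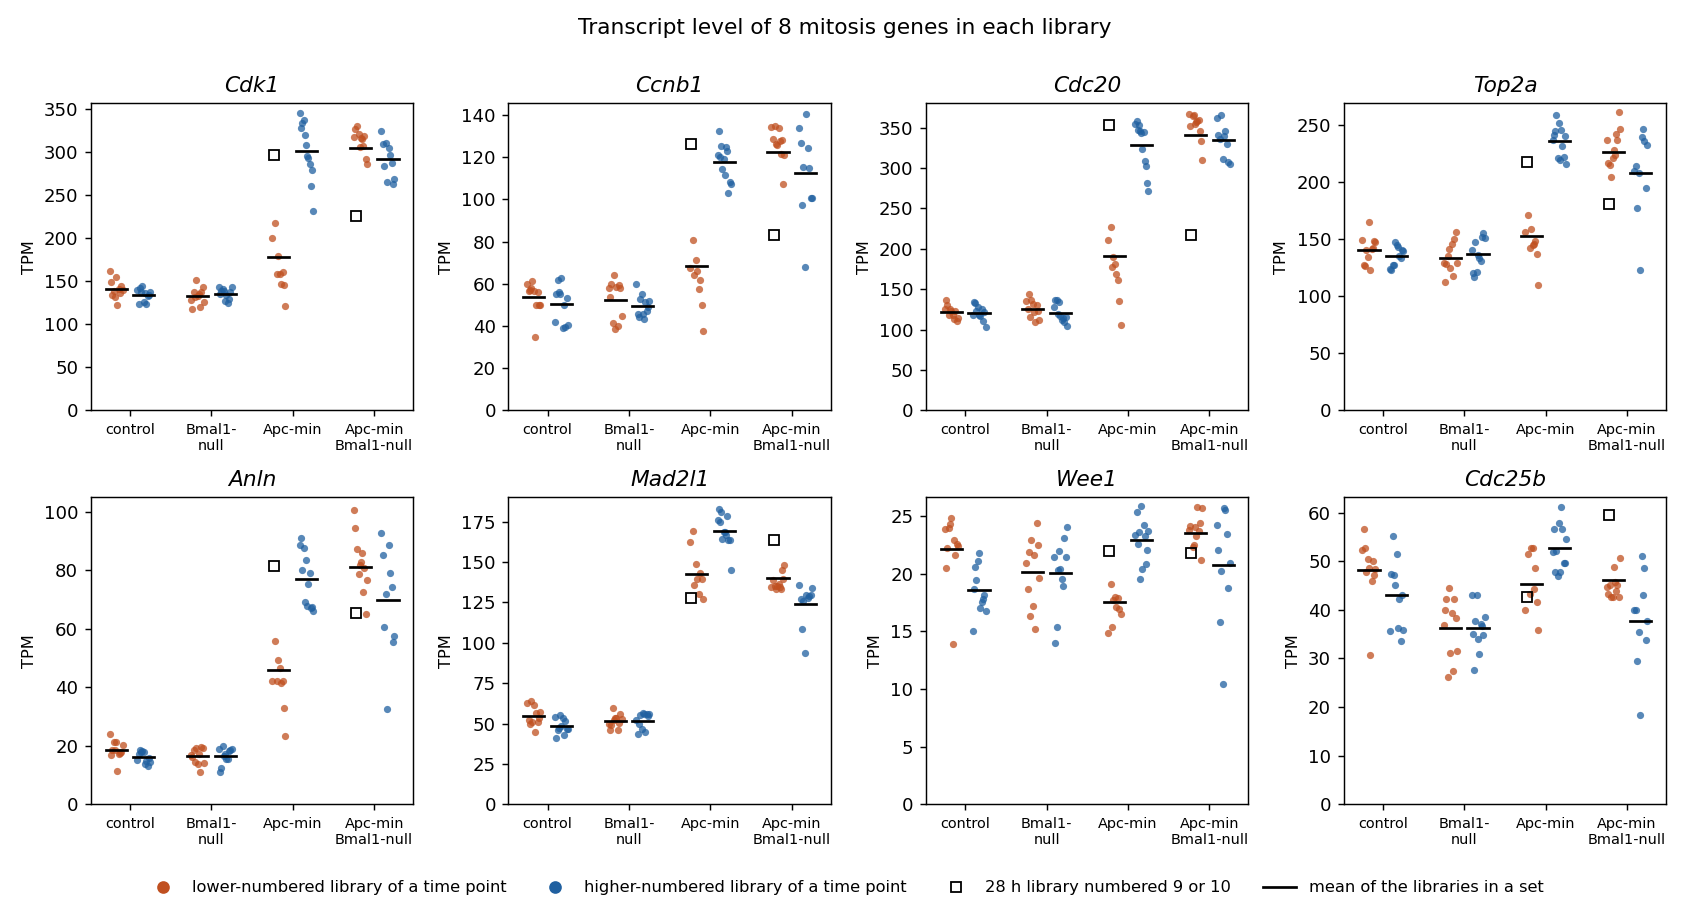
TPM (linear axis from 0) of 8 mitosis genes in every library, by genotype; colours give the lower- or higher-numbered library of each time point, black bars the mean of each set, and squares the 28 h libraries numbered 9 and 10. In Apc-min the higher-numbered set of Cdk1 averages 301 TPM and the lower-numbered set 178 TPM, whereas both control sets lie between 122 and 162 TPM.

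The kinetochore genes Ndc80 and Nuf2, which grip microtubules, rose by 0.57 and 0.70 in Apc-min against control, and the centromere proteins Cenpe and Cenpf by 0.74 and 0.77. Top2a, which untangles chromosomes, was at 123 to 165 TPM (median 140) in control and 110 to 260 TPM (median 219) in Apc-min libraries, and rose by 0.49 ± 0.09 and 0.67 ± 0.05 (limma adjusted p = 8.1e-06 and 5.0e-15). Mki67, the common proliferation marker, was at 18.2 to 47.03 TPM (median 30.7) in control and 11.8 to 66.97 TPM (median 45.8) in Apc-min libraries; the Apc-min range enclosed that of the controls, and its differences were 0.38 ± 0.16 and 0.47 ± 0.11 (limma adjusted p = 0.028 and 0.00014). Birc5, the survivin subunit of the passenger complex, rose by 0.58 and 0.95.

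Of the spindle motors and microtubule proteins, Kif23, a motor of the central spindle, rose by 0.96 ± 0.12 in Apc-min against control and by 1.43 ± 0.05 in Apc-min Bmal1-null against Bmal1-null. Tpx2, which activates Aurora A on the spindle, rose by 0.99 and 1.18, Kif20a by 0.88 and 1.03, Prc1 by 0.81 and 1.03, Kif11 by 0.40 and 0.75 and Nusap1 by 0.23 and 0.42.

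Of the cytokinesis genes, Anln had the largest difference of all members in both comparisons. Its protein, anillin, binds actin in the contractile ring, and its RNA was at 11.2 to 24.0 TPM (median 17.7) in control, 10.98 to 19.97 TPM (median 16.985) in Bmal1-null, 23.4 to 91.1 TPM (median 67.4) in Apc-min and 32.5 to 101 TPM (median 78.955) in Apc-min Bmal1-null libraries. Its rises were 1.75 ± 0.12 and 2.12 ± 0.09 (limma adjusted p = 2.1e-15 and 1.3e-21), ratios of mean TPM of 3.62 and 4.61. Ect2, the exchange factor that turns on RhoA at the cleavage furrow, rose by 1.24 ± 0.14 and 1.69 ± 0.09, and its partner Racgap1 by 0.62 and 0.76. Foxm1, the transcription factor, rose by 0.41 ± 0.16 and 0.65 ± 0.13. In Apc-min Bmal1-null against Bmal1-null, 14 members lay wholly above without overlap and 0 wholly below, against 15.1% and 15.3% of all genes tested.

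Other genes of the cycle were counted the same way. Of 93 further mitosis genes, 76 rose and 3 fell in Apc-min against control, and 87 rose and 2 fell in Apc-min Bmal1-null against Bmal1-null. Psrc1, a spindle protein, rose by 3.39 and 3.001, Gtse1 by 2.04 and 2.24, and Ckap2 by 1.96 and 2.02. Of the 40 genes in the DNA replication list, 32 and 40 rose and 0 fell. The list also holds Ccnd1, a cyclin of early cell cycle entry rather than a replication gene, which rose by 2.69 and 2.57. Markers of differentiated cells moved with these comparisons: all 10 enterocyte, all 5 goblet and all 5 enteroendocrine markers fell in both. Paneth and tuft cell markers were mixed in Apc-min against control. Mmp7 (Paneth) averaged 465 TPM in control and 1843 TPM in Apc-min, and Avil (tuft) 2.41 and 63.2 TPM. The other listed Paneth and tuft markers averaged lower in Apc-min. The enterocyte sum was 7105 to 10656 TPM in control and 56.6 to 823 TPM in Apc-min libraries, and 7 of its 10 markers averaged below 1 TPM in Apc-min. The sum over the 6 stem and transit cell markers was also lower, at 802 to 1481 TPM in control and 258 to 556 TPM in Apc-min libraries. Olfm4 made the largest part of that fall, averaging 577 TPM in control and 0.02 TPM in Apc-min, and Lgr5, Smoc2 and Slc12a2 also averaged lower. Ascl2 and Axin2 went the other way, from 47.7 to 103 TPM and from 111 to 219 TPM. The share of reads left unmapped as too short was also lower on APCmin, at 0.82% to 1.96% in Apc-min and 0.75% to 3.86% in Apc-min Bmal1-null libraries against 2.93% to 15.8% in control and 2.90% to 13.2% in Bmal1-null libraries. The part of cell composition and of read quality in the mitosis gene differences was not tested.

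In Bmal1-null against control, limma called 1 of the 33 genes, a share near the 3.56% called over all genes. Cdc25b was at 26.3 to 44.4 TPM (median 36.9) in Bmal1-null libraries against 30.7 to 56.7 TPM (median 47.3) in control, and fell by 0.32 ± 0.07 on the log2 scale (limma adjusted p = 0.0019). The ranges overlap broadly, and 3.56% of all 12654 genes were called in this comparison, 2.09% as higher and 1.47% as lower. The remaining 32 differences lay close to 0, for example -0.01 ± 0.06 for Wee1, -0.01 ± 0.03 for Cdc25c, -0.03 ± 0.07 for Ccnb1, -0.02 ± 0.03 for Top2a and -0.03 ± 0.11 for Mki67. The median was -0.01 over the mitosis genes and 0.00 over all genes, and 0 of the 93 further mitosis genes and 0 of the 40 replication genes were called by limma, against 2 and 1 at an unadjusted p under 0.05. Cdc25b was also called within the lower-numbered library of each time point but not within the higher-numbered one, and with set means as units 0 members were called.

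On APCmin, 12 members rose and 2 fell in Apc-min Bmal1-null against Apc-min, where 60.3% of all 12885 genes were called, 24.6% being higher and 35.7% lower. The median was 0.20 over the mitosis genes and -0.04 over all genes. Kif23 was at 59.5 to 219 TPM (median 162) in Apc-min and 118 to 239 TPM (median 206) in Apc-min Bmal1-null libraries, and rose by 0.52 ± 0.14 (limma adjusted p = 0.0013). Ect2 rose by 0.49 ± 0.16, Aurka and Cdc20 by 0.38 each and Ccnb1 by 0.35 ± 0.13 (limma adjusted p = 0.021). Ttk, Plk1, Ccna2, Kif11, Birc5, Cdk1 and Ube2c also rose, by 0.38 to 0.25. The values for Wee1 (0.12 ± 0.08), Cdc25c (0.19 ± 0.09), Top2a (0.16 ± 0.10) and Mki67 (0.10 ± 0.15) did not pass the test. Without the 28 h pair 15 rose and 2 fell, where 65.9% of all genes were called. With median-of-ratios scaling or the length covariate 21 rose and 2 fell, and the share of all genes called there is not given here.

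The 2 members that fell were Mad2l1 and Cdc25b. Mad2l1 was at 127 to 183 TPM (median 164) in Apc-min and 93.5 to 164 TPM (median 134) in Apc-min Bmal1-null libraries, and fell by 0.24 ± 0.05 (limma adjusted p = 0.00027). Cdc25b was at 35.8 to 61.1 TPM (median 49.6) and 18.3 to 59.6 TPM (median 43.1), and fell by 0.22 ± 0.08 (limma adjusted p = 0.021). In both the ranges overlap. Of the further mitosis genes 49 rose and 6 fell, led by Shcbp1 (0.87 ± 0.06) and Bora, an activator of Aurora A (0.64 ± 0.12), and of the replication genes 32 rose and 1 fell, led by Mcm10 (0.75 ± 0.14).

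This comparison depended on which Apc-min libraries entered it. The labels give a lower- and a higher-numbered library for each genotype and time point. The sets formed by these numbers were compared after the data had been seen. Not every library was in the tables: Apc-min had 10 lower- and 12 higher-numbered ones, at mean times of 36.4 and 35 h. In Apc-min, all 33 members were higher in the higher-numbered set with time point as a factor, with 0 lower, where 59.5% of all 12625 genes were called and 35.7% were higher. The median difference was 0.76 over the mitosis genes and 0.07 over all genes. In Apc-min Bmal1-null and in Bmal1-null 0 members were called by limma (7 and 0 at an unadjusted p under 0.05), where 2.06% of all genes (1.47% higher, 0.598% lower) and 0.502% (0.359% higher, 0.143% lower) were. In control 4 members were lower in the higher-numbered set, where 24.4% of all genes were called, 5% higher and 19.4% lower. At an unadjusted p under 0.05 there were 21 members in control. The control count was 24 without either 38 h library, 1 without the lower-numbered 40 h library, 2 without either 24, 26, 30, 32, 36, 42 or 46 h library or the higher-numbered 40 h library.

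The gap was widest for Ect2, which averaged 50.3 ± 19.3 TPM (SD, n = 10) in the lower-numbered and 93.8 ± 8.61 TPM (SD, n = 12) in the higher-numbered Apc-min libraries, a log2 difference of 0.97 ± 0.12. Mki67 followed, at 29.04 ± 9.33 and 52.5 ± 7.60 TPM (0.94 ± 0.13), then Foxm1 (0.92 ± 0.15) and Bub1b (0.89 ± 0.10). Cdk1 averaged 178 ± 49.95 and 301 ± 34.1 TPM, while its control sets averaged 141 and 134 TPM. Mad2l1, at 142 ± 14.1 and 169 ± 10.4 TPM, Cdc25b, at 45.3 ± 5.79 and 52.7 ± 4.61 TPM, and Wee1, at 17.6 ± 1.99 and 22.9 ± 1.92 TPM, had the smallest differences, of 0.25, 0.24 and 0.39. With the library labelled Apc-min numbered 9 left out of the lower-numbered set, the higher-numbered set lay wholly above the lower-numbered one for 27 of the 33 members, against 12.6% of all genes; with it, for 5 members, against 1.84%.

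Markers of other cell types differed between these sets as well. The lower-numbered set here includes the 28 h library numbered 9, which went against its Bmal1 label, and marker values without it are not given. The enterocyte sum was 56.6 to 823 TPM (median 506) in the lower-numbered and 69.95 to 153 TPM (median 99.7) in the higher-numbered Apc-min libraries, with 7 and 8 of the 10 markers averaging below 1 TPM. Nearly all of this sum was 1 gene, Anpep, an aminopeptidase, at 493 ± 219.98 and 102 ± 24.3 TPM (SD, n = 10 and 12). Without Anpep the enterocyte sum was 8.36 to 52.6 TPM and 3.08 to 5.76 TPM. The goblet sum was 149 to 322 TPM (median 191) against 59.3 to 118 TPM (median 90.9), and 2 of its 5 markers averaged below 1 TPM in both; Fcgbp, a mucus protein, made most of that difference, at 131 ± 49.5 and 27.7 ± 5.58 TPM. Tff3, another goblet marker, did not follow that sum, with medians of 19.25 and 47.07 TPM and means of 45.9 and 47.9 TPM. The stem and transit cell sum was 258 to 411 TPM (median 357) against 358 to 556 TPM (median 462). Smoc2 made most of that difference, averaging 5.94 and 80.7 TPM, and Lgr5, Ascl2 and Slc12a2 also averaged higher in the higher-numbered set. Axin2 went the other way, averaging 238 and 203 TPM. Of the replication genes 39 of 40 and of the further mitosis genes 88 of 93 were higher in the higher-numbered set, led by Uhrf1 (1.23 ± 0.17) and Mybl2 (1.06 ± 0.16). Whether the sets are the 2 organoid lines is not given by the labels, and the part of cell composition in the set difference was not tested.

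Against the lower-numbered Apc-min libraries alone, 31 members rose and 0 fell in the lower-numbered Apc-min Bmal1-null libraries (64.7% of all genes called). The median was 0.70 over the mitosis genes and 0.02 over all genes. Ect2 rose there by 1.16 ± 0.21, Kif23 by 1.03 ± 0.20, Ccnb1 by 0.87 ± 0.16, Mki67 by 0.69 ± 0.17 and Wee1 by 0.41 ± 0.07. Between the higher-numbered sets, 0 members rose and 10 fell (49.5% of all genes called). The median was -0.15 over the mitosis genes, near the -0.12 over all genes. Cdc25b fell there by 0.49 ± 0.10, Mad2l1 by 0.47 ± 0.05, Mki67 by 0.42 ± 0.11 and Top2a by 0.21 ± 0.08. For 27 of the 33 members the Bmal1 difference on APCmin was above 0 between the lower-numbered and below 0 between the higher-numbered sets, and with set means as units 0 members were called by limma. Mad2l1 and Cdc25b differed by -0.01 ± 0.06 and 0.05 ± 0.08 between the lower-numbered sets, which did not pass the test.

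**Figure D3:**
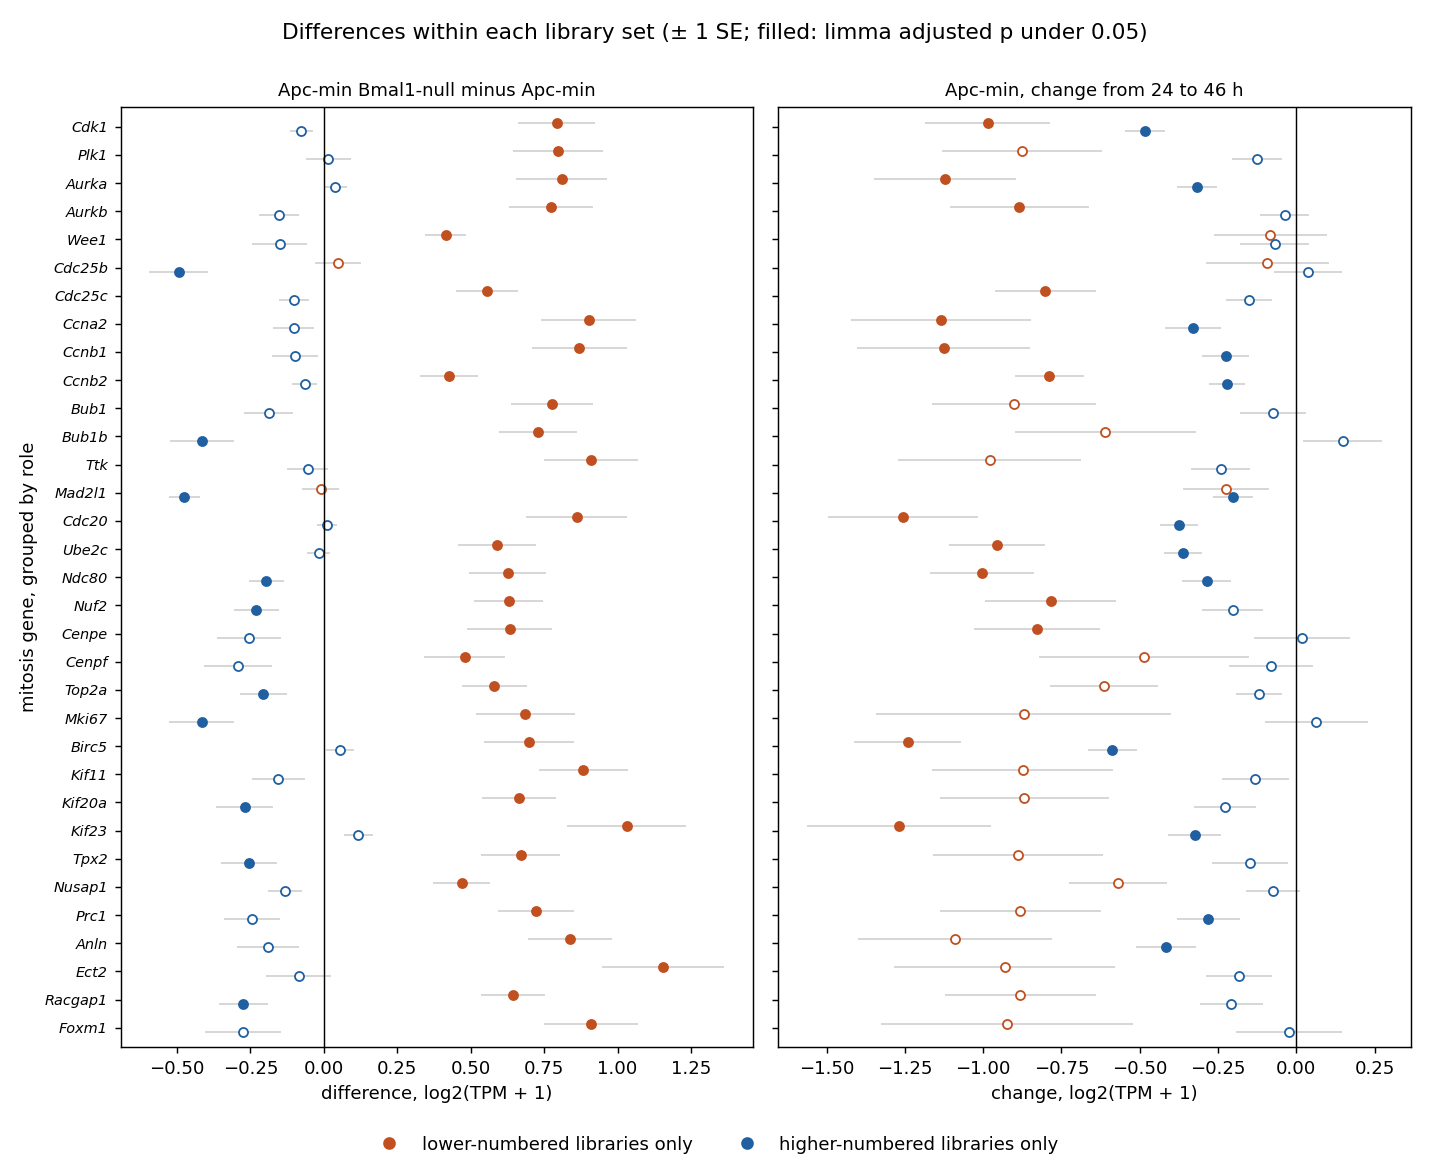
Log2 estimates for all 33 members within the lower-numbered (orange) and higher-numbered (blue) libraries; the left panel gives Apc-min Bmal1-null minus Apc-min and the right panel the change from 24 to 46 h in Apc-min, with bars of 1 SE and filled points at a limma adjusted p under 0.05. On the left 31 orange points are filled to the right of 0 and 10 blue points to the left.

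The Apc difference was also uneven between the sets, and was weaker in the lower-numbered one. In the higher-numbered libraries all 33 members rose in Apc-min against control (83.3% of all genes called), with a median of 1.06. In the lower-numbered libraries 14 rose and 1, Wee1, fell by 0.32 ± 0.09 (67.7% of all genes called), with a median of 0.20. Over all genes the medians were 0.24 in the higher-numbered and 0.09 in the lower-numbered libraries. Mad2l1 rose by 1.79 ± 0.05 and 1.42 ± 0.07 in the 2 sets and Anln by 2.20 ± 0.06 and 1.17 ± 0.14. Top2a rose by 0.80 ± 0.05 in the higher-numbered set and differed by 0.06 ± 0.08 in the lower-numbered set, and Mki67 rose by 0.94 ± 0.09 and differed by -0.27 ± 0.21. For Apc-min Bmal1-null against Bmal1-null the counts were 33 and 28 higher in the lower- and higher-numbered libraries, and 0 lower in both, where 80.4% and 72.3% of all genes were called.

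The Bmal1 effect differed between the Apc backgrounds for 15 of the 33 members when the interaction itself was tested over all 88 libraries, 14 being more positive and 1, Mad2l1, more negative on APCmin. Of all 13846 genes, 47.7% were called, 18.1% more positive and 29.6% more negative. Kif23 had the largest value (0.47 ± 0.13), followed by Ect2 (0.45 ± 0.17), Ttk (0.41 ± 0.14) and Cdc20 (0.38 ± 0.12). Ccnb1 (0.37 ± 0.14) and Cdc25c (0.21 ± 0.09) passed the test, and Wee1 (0.13 ± 0.10), Cdc25b (0.08 ± 0.11), Top2a (0.19 ± 0.10) and Mki67 (0.10 ± 0.19) did not. Within the lower-numbered libraries 32 members were more positive (56.2% of all genes called), and within the higher-numbered libraries 4 were more negative and 0 more positive (33.9% called). The medians there were 0.78 and -0.22 over the mitosis genes and 0.04 and -0.17 over all genes. Without the 28 h pair 15 were more positive and 1 more negative (53.3% of all genes called). With set means as units 0 members were called.

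The time courses were sampled to find rhythmic genes. A cosine of 24 h period was tested in each genotype, and 0 members were called by limma in control, Bmal1-null and Apc-min, where 0.0557%, 0% and 12% of all genes were called. At an unadjusted p under 0.05 there were 3, 1 and 1. In Apc-min Bmal1-null 1 member was called, Cenpe, the kinetochore motor, with an amplitude of 0.33 ± 0.08 on the log2 scale (limma adjusted p = 0.049), where 2.59% of all genes were called. Cenpe was no longer called without the lower- or the higher-numbered library of 24, 26, 30, 38, 40 or 44 h, the higher-numbered of 28 h or the lower-numbered of 36, 42 or 46 h, when 0 members were. The cosine differed between Apc-min Bmal1-null and Apc-min, and between Bmal1-null and control, for 0 members by limma, where 0% and 0.0395% of all genes were called. At an unadjusted p under 0.05 there were 4 and 0. The 4 members with the lowest p in Apc-min were Birc5 (amplitude 0.35 ± 0.12), Ube2c (0.24 ± 0.10), Ccnb2 (0.19 ± 0.08) and Cdk1 (0.29 ± 0.13), with limma adjusted p from 0.10 to 0.23. The Apc-min count was 8 with the set as a replicate block and 28 with the length covariate. The share of all genes called in those fits is not given here, so these counts are not results about the members alone.

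A one-way change over time was clearer, and in Apc-min. The linear trend fell for 9 of the 33 members there and rose for 0, where 31.2% of all 12625 genes were called, 22.2% rising and 9.01% falling. The median change from 24 to 46 h was -0.58 over the mitosis genes and 0.11 over all genes. Birc5 fell by 0.97 ± 0.24 (limma adjusted p = 0.0055), Cdc20 by 0.88 ± 0.30, Kif23 by 0.86 ± 0.33 and Anln by 0.83 ± 0.30, and Cdk1, Aurka, Ndc80, Ube2c and Ccnb2 fell by 0.82 to 0.54. The changes for Ccnb1 (-0.74 ± 0.31), Cdc25c (-0.52 ± 0.21), Mki67 (-0.48 ± 0.39), Top2a (-0.43 ± 0.23), Wee1 (-0.14 ± 0.16) and Cdc25b (-0.05 ± 0.13) did not pass the test.

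Since each set had its own level, the trend was also taken within sets. At 24 h only the higher-numbered Apc-min library was in the tables. In the higher-numbered Apc-min libraries Cdk1 went from 345 TPM at 24 h to 231 TPM at 46 h, and in the lower-numbered ones from 200 TPM at 26 h to 121 TPM at 46 h. Within the lower-numbered libraries 14 members fell and 0 rose (6.51% of all genes called), with a median of -0.88. Within the higher-numbered libraries 13 fell and 0 rose (35.6% called), with a median of -0.20. Over all genes these medians were 0.11 and 0.12. The lower-numbered fit includes the 28 h library numbered 9, with Cdk1 at 297 TPM against 121 to 217 TPM in the others. Birc5 fell by 1.24 ± 0.17 and 0.59 ± 0.08, Cdc20 by 1.26 ± 0.24 and 0.37 ± 0.06 and Cdk1 by 0.99 ± 0.20 and 0.48 ± 0.06 in the lower- and higher-numbered sets. With the set as a replicate block 26 members fell, with median-of-ratios scaling 21, with the length covariate 31, 15 on the authors' quantile-normalized values and 2 with no filter on low values. The share of all genes called under these settings is not given here, so these counts are not results about the members alone. The count over all libraries was 5 without the 28 h pair, where 25.4% of all genes were called. It was also 5 without the lower-numbered 28 h library alone. It was 2 without the higher-numbered 24 h or the lower-numbered 44 or 46 h library, 3 without the higher-numbered 28 h, 4 without the higher-numbered 26 h or the lower-numbered 42 h, 15 without the higher-numbered 44 h and 19 without the lower-numbered 26 h library. The library of 46 h with the lower number was the lowest of all Apc-min libraries for 32 of the 33 members.

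**Figure D4:**
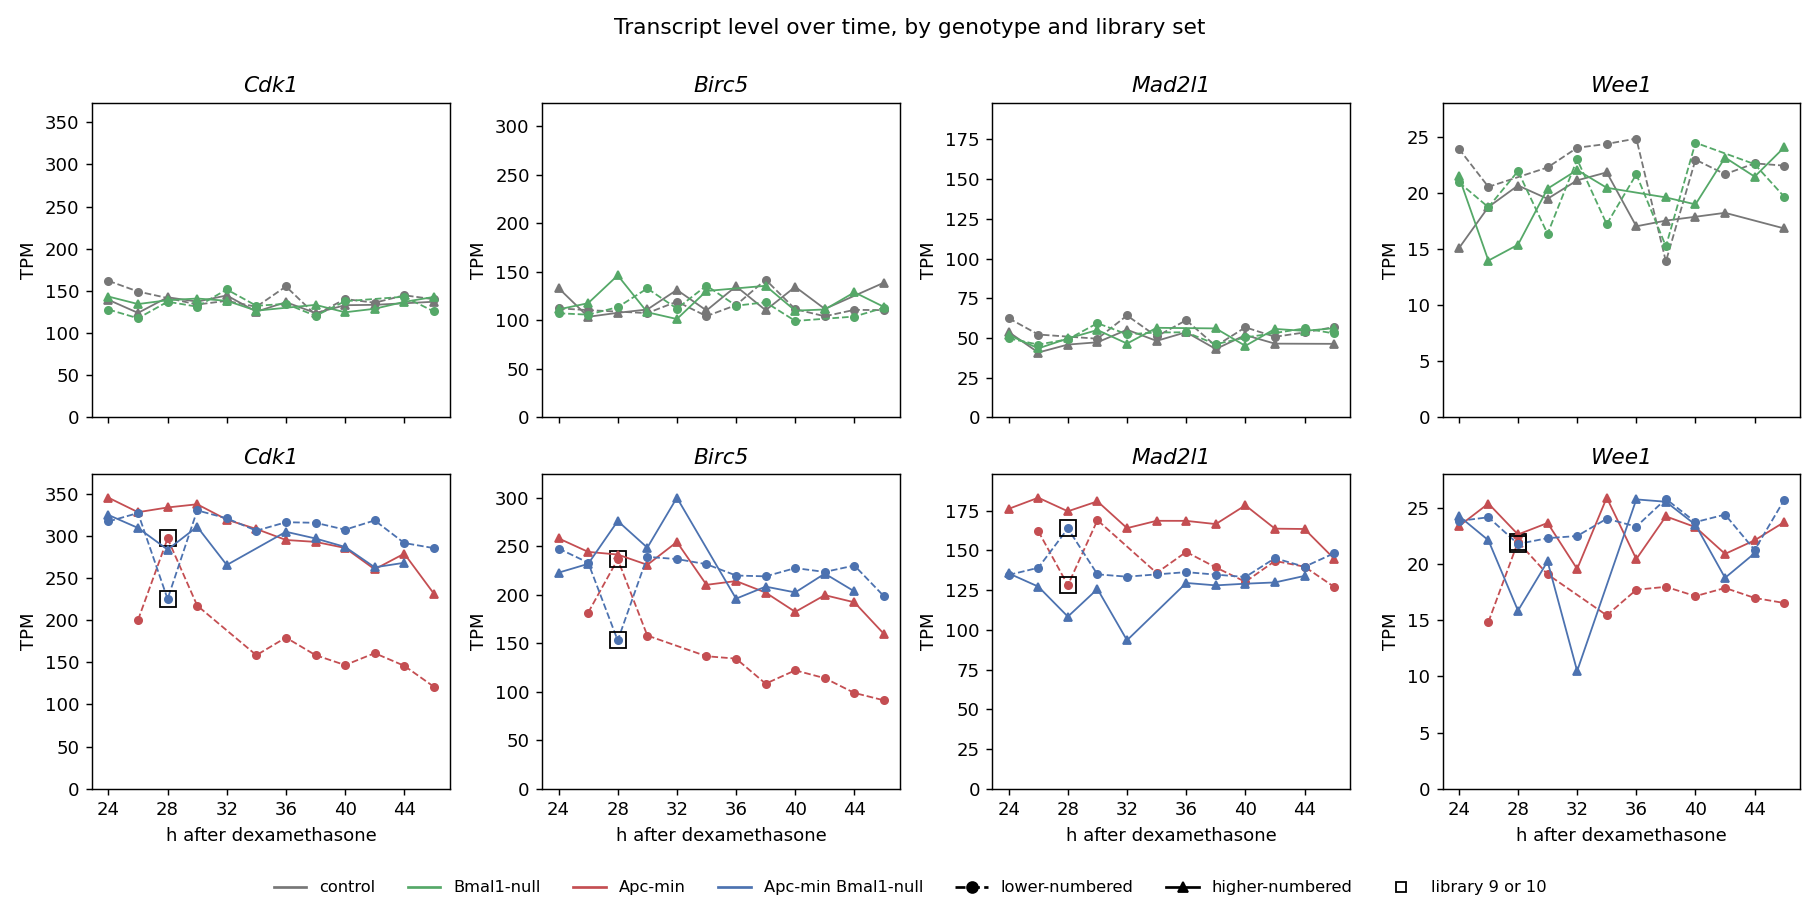
TPM of 4 mitosis genes against hours after dexamethasone, with wild-type Apc genotypes in the upper and APCmin genotypes in the lower row; dashed lines with circles are lower-numbered and solid lines with triangles higher-numbered libraries, and squares mark the 28 h libraries numbered 9 and 10. Cdk1 and Birc5 decline over time in both Apc-min sets, and the Wee1 values of all genotypes lie between 10.5 and 25.9 TPM.

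The other genotypes had few one-way changes. In control 1 member, Cdc20, fell by 0.22 ± 0.06 (limma adjusted p = 0.046), where 2.2% of all genes were called, 0.971% rising and 1.23% falling. In Bmal1-null Cdc20 alone fell by 0.27 ± 0.07 (limma adjusted p = 0.015), where 6.71% were called, 3.43% rising and 3.28% falling. In control no member was called without either 26, 30, 34, 36, 40 or 46 h library, the lower-numbered 24 or 44 h or the higher-numbered 28 or 32 h library, and 2 were without the higher-numbered 24 h library. In Bmal1-null the count was 0 without the higher-numbered 46 h library, 2 without the higher-numbered 30 or 40 h and 3 without the lower-numbered 38 h library. In Apc-min Bmal1-null 0 members were called by limma (3 at an unadjusted p under 0.05), where 8.44% of all genes were (5.62% rising, 2.82% falling), with a median of 0.10 and values of -0.17 ± 0.13 for Birc5, -0.09 ± 0.09 for Cdk1 and -0.06 ± 0.11 for Cdc20. The count there was 1 without the lower-numbered 28 h or the higher-numbered 32 h library.

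Tests of the trend difference were added after the data had been seen. Between Apc-min Bmal1-null and Apc-min 0 members were called by limma (21 at an unadjusted p under 0.05), where 0.279% of all genes were, with a median difference of 0.72, and within the lower-numbered libraries 24 were more positive in Apc-min Bmal1-null (10.8% of all genes called). Without the lower-numbered 26 h Apc-min library the count was 3, and without the higher-numbered 42 or 44 h one 2. Between Apc-min and control the trends of Birc5 (-1.04 ± 0.26), Ndc80 (-0.82 ± 0.30), Ube2c (-0.76 ± 0.22) and Ccnb2 (-0.55 ± 0.18) were more negative in Apc-min. These were 4 members, where 21.6% of all genes were called, 16.5% more positive and 5.09% more negative. That count was 2 without the higher-numbered 46 h control or the lower-numbered 42, 44 or 46 h Apc-min library, 8 without the higher-numbered 44 or 46 h and 12 without the lower-numbered 26 h Apc-min library. Among other genes of the cycle, 26 of 93 further mitosis genes and 21 of 40 replication genes fell over time in Apc-min, led by Ska1 (-0.89), Fbxo5 (-0.87), Cdc6 (-1.08) and Ccne2 (-1.003), whereas Psrc1 rose by 0.41. Over all genes tested in Apc-min, 22.2% rose over time and 9.01% fell. Of the 4 of 5 Paneth cell markers that could be tested, 3 rose over time, as did 1 of the 3 goblet markers tested. The part of cell composition in the trend was not tested.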

How the data were processed

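RNA was measured in 88 libraries of mouse intestinal organoids; 8 further labelled libraries were not used here. The deposited tables hold TPM per gene and library; quantile-normalized TPM tables by the authors, with genes filtered by a rule not given in the sources used here, served as an alternative. The submitters' processing notes name STAR 2.5, RSEM 1.3.0 and GRCm38. The deposited alignment summary gave the count of uniquely mapped reads and, in percent, the reads unmapped as too short, which ranged from 0.75% to 15.8%. TPM keeps no read count per gene, so the depth behind a gene's value is unknown. TPM is also relative, so a rise of abundant genes lowers all others.

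Levels were tested as log2(TPM + 1) with limma 3.58.1 (R 4.3.3, mean-variance trend), over genes averaging 1 TPM or more in a compared genotype, with Benjamini-Hochberg adjustment over all genes tested and calls at an adjusted p under 0.05. Differences are in log2 units of TPM + 1, which understates changes of low genes; SE is the standard error. Genotypes were compared with time point as a factor, and time was fitted as a 24 h cosine or as a linear term. The fits were tested on simulated data. The 1021 score genes were called between the Apc-min genotypes, without the 28 h pair, and differed by 1 log2 unit or more. The labels give library numbers but no replicate numbers and no line for each library, so the library set served as the block.

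Members and lists were chosen with earlier results of these data known. Comparisons of library sets, trend differences and fits within sets were added after seeing the data. The members given in full are those called with the largest difference, up to 4 in each direction, always with Wee1, Cdc25b, Cdc25c, Ccnb1, Top2a and Mki67, or, where 0 were called, the 4 of lowest p. Of other lists up to 4 genes are named. Levels of other members, and the genes whose promoters are printed, were chosen after their values were seen. Other settings tried were a pseudocount of 0.1, no filter, median-of-ratios scaling, the length covariate, the block, set means and leaving out each library. In Apc-min against control, of the 4 tuft markers Avil rose and 3 fell, of the immune and endothelial markers 1 each could be tested and rose (Lyz2 and Cdh5), and fibroblast markers were too low to test; of the 5 Paneth markers 1 rose and 4 fell, of the 6 stem and transit cell markers 2 rose and 4 fell and of the 9 epithelial markers 1 rose and 6 fell.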

Additional observations from a re-analysis of the deposited data

Results flagged for a closer look

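The effect of Bmal1 loss differed between the Apc backgrounds for 15 of the 33 members when the interaction itself was tested with limma over 88 libraries, where 47.7% of all genes were called. The members described in full among them differed by 0.47 for Kif23, 0.45 for Ect2, 0.41 for Ttk, 0.38 for Cdc20, 0.37 for Ccnb1, 0.21 for Cdc25c and -0.26 for Mad2l1 (log2, effect on APCmin minus effect on wild-type Apc). Within the lower-numbered libraries 32 members were more positive on APCmin (56.2% of all genes called), whereas within the higher-numbered libraries 4 were more negative and 0 more positive (33.9% called). The medians there were 0.78 and -0.22 over the members and 0.04 and -0.17 over all genes. With set means as units 0 members were called. Taken in either direction, the share of members called over all libraries was close to that of all genes. By direction, all called members but Mad2l1 were more positive on APCmin, where 18.1% of all genes were more positive and 29.6% more negative. The linear trend over time differed between Apc-min and control for 4 members, where 21.6% of all genes were called and 5.09% were more negative, by a test of the difference added after the data had been seen.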

How the results depend on the processing

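The counts below are members called by limma, and settings that gave a count within 1.5 times the reported one are left out. The cause of each change was not tested. The share of all genes called under each setting is not given beside these counts, so they are not results about the members alone. With each library left out in turn, the counts were 1 to 1 for Bmal1-null against control, 13 to 19 for Apc-min Bmal1-null against Apc-min, 30 to 31 for Apc-min against control, 31 to 33 for Apc-min Bmal1-null against Bmal1-null and 11 to 18 for the interaction. They were 0 to 1 for the cosine in Apc-min Bmal1-null, and 0 to 0 for the other 3 cosines and both cosine differences. Linear trends gave 0 to 2 in control, 0 to 3 in Bmal1-null (3 being 2 rising and 1 falling), 2 to 19 in Apc-min and 0 to 1 in Apc-min Bmal1-null. Set differences gave 1 to 24 in control, 33 to 33 in Apc-min and 0 to 0 in the other genotypes, and trend differences 0 to 3 between Apc-min Bmal1-null and Apc-min and 2 to 12 between Apc-min and control.

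With the library set as a replicate block, the counts for levels were 1, 21, 31 and 32 and that for the interaction 16. The block gave 8 for the Apc-min cosine, 0, 0 and 1 for the other cosines, 26 for the Apc-min trend, 1, 1 and 0 for the other trends, and 3 and 9 for the trend differences. The numbers are no replicate numbers of the design, so this pairing rests on library order alone. Set means gave 0 for Bmal1-null against control, 0 for Apc-min Bmal1-null against Apc-min, 10 for Apc-min against control and 0 for the interaction, in a fit of few units. Lower-numbered libraries alone gave 31 for Apc-min Bmal1-null against Apc-min, 15 for Apc-min against control, 32 for the interaction, 0 for the trends in control and Bmal1-null, 14 for the Apc-min trend, and 24 and 9 for the trend differences. Higher-numbered libraries alone gave 0 for Bmal1-null against control and for the trends in control and Bmal1-null. They gave 10 for Apc-min Bmal1-null against Apc-min and 4 for the interaction, all lower or more negative, whereas most calls over all libraries were positive. Mad2l1 was negative and called in both either way, as was Cdc25b in the first.

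Median-of-ratios scaling gave 23 for Apc-min Bmal1-null against Apc-min, 24 for the interaction, 0 for the control trend, 21 for the Apc-min trend and 15 for the trend difference of Apc-min against control. The length covariate gave 23 for Apc-min Bmal1-null against Apc-min, 23 for the interaction, 28 and 2 for the cosines in Apc-min and Apc-min Bmal1-null, 31 and 7 for their trends, and 32 and 30 for the trend differences. In Bmal1-null, where Cdc20 alone had fallen, the majority rose with scaling (3 of 5), the length covariate (5 of 9) and the quantile-normalized table (4 of 5). Those values gave 0 in control, 15 for Apc-min and 3 for the trend in Apc-min Bmal1-null. No filter gave 0 for the Apc-min Bmal1-null cosine, 2 for the Apc-min trend, 2 for the control set difference and 2 for the trend difference of Apc-min against control. The Apc-min Bmal1-null cosine was also lost (0) with a pseudocount of 0.1 or a linear time term. Without the 28 h pair the trends in Apc-min and Apc-min Bmal1-null gave 5 and 1. TPM keeps no depth per gene, which limits low members most.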
